A study of Mus musculus with 10 samples.

Results

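Mal2 encodes a small 4-pass membrane protein of the MAL proteolipid family, and its messenger RNA was followed here in mouse pancreas carrying 0, 1 or 2 floxed copies of Insr, the gene of the insulin receptor. It is 1 gene of 24421 in the deposited count table. It was chosen by its counts in these same libraries, whose means were lower with each floxed allele, so its differences between genotypes are described without a test. Gene counts came from a piece of the pancreas tail of 10 female mice aged 12 weeks, with 1 library per mouse. Per the series' design text, all mice carried, among other alleles, Ptf1aCreER, a tamoxifen-inducible Cre recombinase expressed from Ptf1a, a gene of the enzyme-secreting acinar cells, and nTnG, a nuclear reporter that changes colour after recombination. The groups were Insr WT (w/w, 3 libraries), Insr Het (w/f, 3 libraries) and Insr KO (f/f, 4 libraries). The driver limits recombination to cells with Ptf1a expression, while the libraries hold RNA of every cell type in the piece.

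MAL2 sits in cholesterol-rich domains of epithelial membranes and is known for its part in transcytosis, the route by which proteins taken from the basolateral surface of a polarised cell are carried to the apical surface. It was found as a binding partner of the TPD52 proteins, and in hepatocyte models it acts with the small GTPase CDC42 and the formin INF2. Pancreatic acinar and duct cells are both polarised epithelia with an apical lumen. In GENCODE M21 (GRCm38, the same assembly as mm10), Mal2 (ENSMUSG00000024479.3) lies on the plus strand at chr15:54571192-54602847, with 1 annotated transcript of 4 exons, an exonic length of 2950 bases and a coding part of 525 bases. It overlaps 0 other annotated genes on either strand. Counts per gene do not show which exons were read.

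The libraries held 11718559 to 19024351 gene counts. Secreted enzyme genes (a list of 34) took as little as 16.6% of the counts (WT-2404), with 61.2% and 65.4% in WT-1860 and KO-2124. The share was 74.4% to 80.8% elsewhere. The label of WT-2404 is also the 1 label that names no library kit. The factors that put the libraries on 1 scale (TMM) ran from 0.596 in KO-2126 to 3.53 in WT-2404. Levels are therefore given as CPM, the count scaled to a TMM-adjusted library of common size, and beside other scales where these differ. The targeted gene Insr was at 29.8 ± 9.88 CPM in WT (SD, n = 3), 38.5 ± 8.92 CPM in Het (SD, n = 3) and 31.5 ± 5.95 CPM in the KO group (SD, n = 4), with overlapping ranges, so counts over the whole gene did not separate the labels, and they do not show loss of a floxed exon in acinar cells. Igf1r, which encodes a related receptor, had Het and KO libraries wholly above the WT libraries, and Het and KO overlapped. Its means were 17.6 CPM in WT, 25.1 CPM in Het and 27.5 CPM in KO libraries (SD 3.05, 5.64 and 1.70). Of all genes tested, 11.3% had Het and 6.74% had KO libraries wholly above WT. Nothing in the labels says more of the mice's litters or handling. With 1 library per mouse, differences between mice, tissue pieces and library preparation cannot be told apart in the spread between libraries.

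Mal2 was counted in every library: WT-2404 had 1448 counts, WT-1860 had 561 and WT-2067 had 352. The Het libraries had 220 (Het-2066), 235 (Het-1770) and 298 counts (Het-2042). The KO libraries had 239 (KO-2079), 75 (KO-2070), 250 (KO-2124) and 126 counts (KO-2126). The raw counts overlapped between Het and KO libraries, which differ in depth and in the share taken by enzymes.

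On the CPM scale, Mal2 was at 24.2, 30.7 and 21.6 CPM in WT-2404, WT-1860 and WT-2067. It was at 19.3, 21.9 and 18.3 CPM in Het-2066, Het-1770 and Het-2042. It was at 14.8, 9.88, 11.5 and 12.7 CPM in KO-2079, KO-2070, KO-2124 and KO-2126. Every KO library lay below every Het and WT library, while the WT and Het ranges overlapped, since Het-1770 (21.9 CPM) was above WT-2067 (21.6 CPM). The group means were 25.5 ± 4.69 CPM in WT (SD, n = 3), 19.8 ± 1.86 CPM in Het (SD, n = 3) and, over the 4 KO mice, 12.2 ± 2.06 CPM (SD). On this scale the KO libraries were thus separate from the Het libraries, and the Het libraries were not separate from the WT libraries. The word graded therefore holds here for the means and not for the single libraries. In bulk tissue, fewer cells that express Mal2 and less Mal2 RNA per cell cannot be told apart.

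Counting error was small beside the difference between KO and WT libraries, but not beside that between Het and WT libraries. The exact Poisson 95% interval of the lowest library, KO-2070 with 75 counts, ran from 7.77 to 12.4 CPM. The interval of KO-2079, the highest KO library, reached up to 16.8 CPM and met that of Het-2042, the lowest Het library, which ran from 16.3 to 20.5 CPM. The interval of WT-2067, the lowest WT library, ran from 19.4 to 23.9 CPM. It met the interval of every Het library, and that of Het-1770 reached up to 24.9 CPM. These intervals account for counting error only: the reads carry no molecular identifiers and may repeat the same molecule.

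**Figure D1:**
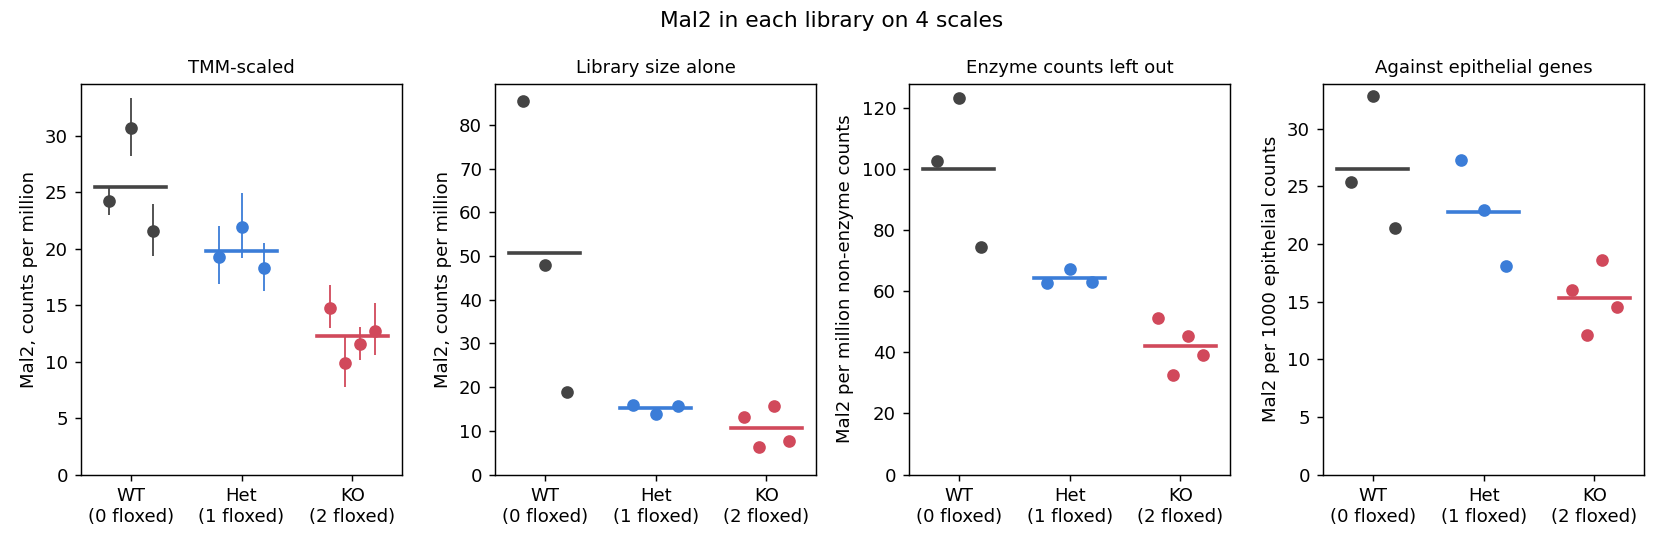
Mal2 in each of the 10 libraries on 4 linear scales (points are libraries, thick lines are group means, and the vertical bars in the first panel are exact Poisson 95% intervals). On the TMM scale the 4 KO libraries (9.88 to 14.8 CPM) lie below the 3 Het libraries (18.3 to 21.9 CPM), and WT and Het overlap; by library size alone or against epithelial counts, KO and Het overlap.

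The size of each step was taken from an edgeR fit over all 10 libraries. Such a fit gives no standard error directly. The SE of an edgeR value is its absolute log2 fold change over the square root of its quasi-likelihood F statistic. The first step, Het against WT, had a log2 fold change of -0.36 (SE 0.20), so that Het libraries held 77.8% of the WT level. The second step, KO against Het, was -0.69 (SE 0.19), or 61.9% of the Het level. Both steps together gave -1.05 (SE 0.19), or 48.2% of the WT level. As a straight line over allele number, the change was -0.53 per floxed allele (SE 0.09). The second step was the larger by the point estimate, and their difference of -0.33 (SE 0.34) was within its standard error. Without WT-1860 the first step was -0.21.

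Which groups separated depended on the denominator. By library size alone, Mal2 was at 85.5 (WT-2404), 47.9 (WT-1860) and 18.9 CPM (WT-2067), and the Het libraries ran from 13.9 to 16.0 CPM. On this scale the WT libraries lay above all others, and KO-2124 (15.7 CPM) lay inside the Het range. With the enzyme counts taken out of the library size, Mal2 was at 74.5 to 123 CPM in WT, 62.6 to 67.3 in Het and 32.5 to 51.3 in KO libraries, and all 3 groups were separate. Per 1000 counts of 16 general epithelial genes, it was at 21.4 to 32.9 in WT, 18.1 to 27.3 in Het and 12.1 to 18.6 in KO libraries. KO and WT stayed separate on this scale, and KO-2124 (18.6) lay just above Het-2042 (18.1). KO libraries were below WT libraries on all 4 scales, whereas the Het libraries changed neighbours from scale to scale. By library size alone, the median of all tested genes was also lower in KO than in WT libraries, as given further below.

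The enzyme share stood beside these levels as follows. It was 16.6%, 61.2% and 74.6% in WT-2404, WT-1860 and WT-2067, where Mal2 was at 24.2, 30.7 and 21.6 CPM. It was 74.4%, 79.3% and 75.2% in Het-2066, Het-1770 and Het-2042. It was 74.4%, 80.8%, 65.4% and 80.6% in KO-2079, KO-2070, KO-2124 and KO-2126. With the summed enzyme level as a covariate, the first step was -0.36 (SE 0.24) and the second -0.69 (SE 0.19).

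The steps of Mal2 were set beside those of the 1277 other tested genes whose mean log2 CPM over the 10 libraries lay within 0.25 of that of Mal2 (4.14). Among these genes the first step was widely spread, with a 5th percentile of -0.73, a median of 0.13 and a 95th percentile of 0.79. The first step of Mal2 fell inside that spread, and 187 of the 1277 genes (14.6%) had a step as low or lower (8.24% without WT-2404 and 23.6% without WT-1860). The second step was narrow in these genes, from -0.25 at the 5th percentile to 0.26 at the 95th. Only 1 of the 1277 (0.0783%) had a second step as low as that of Mal2, a share of 0% to 0.404% with 1 library left out. This gene was Gsta4, a glutathione transferase, at -0.86 (SE 0.71), which was at 7.89 to 45.5 CPM in Het and 1.58 to 23.7 CPM in KO libraries, so that its groups overlapped. Mal2 was therefore at the edge of the distribution for the step from 1 to 2 floxed alleles and well inside it for the step from 0 to 1. These ranks describe the pattern that chose the gene and carry no test.

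The replicate spread of Mal2 was of ordinary size. Its pooled standard deviation within groups was 0.22 on the log2 CPM scale, against a median of 0.27 in the 1277 genes, of which 408 (31.9%) had a spread as small or smaller. Gsta4 was also the only one of the 1277 in which both steps were at least as low as in Mal2, and over all 13688 tested genes 130 (0.95%) met that mark, while 20.7% had both steps below 0. Genes whose WT, Het and KO libraries formed 3 separate, descending ranges numbered 13 of 13688 (0.095%), and 6 (0.0438%) formed ascending ones, counts that reached 74 (without Het-2066) and 48 (without KO-2124). Mal2 was not among the 13 because of the overlap of Het-1770 with WT-2067. Among the 1277, Luzp1 was the 1 gene with separate descending ranges, with smaller steps of -0.30 and -0.23. Genes with KO libraries wholly below Het libraries made up 1.16% of those tested, those with Het wholly below WT 13.5%, and those with KO wholly below WT 9.17%. In either direction, ranges were separate for 2.46%, 24.8% and 15.9% of genes, and the KO group was wholly above Het for 1.3% and above WT for 6.74%, with Het above WT for 11.3%.

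**Figure D2:**
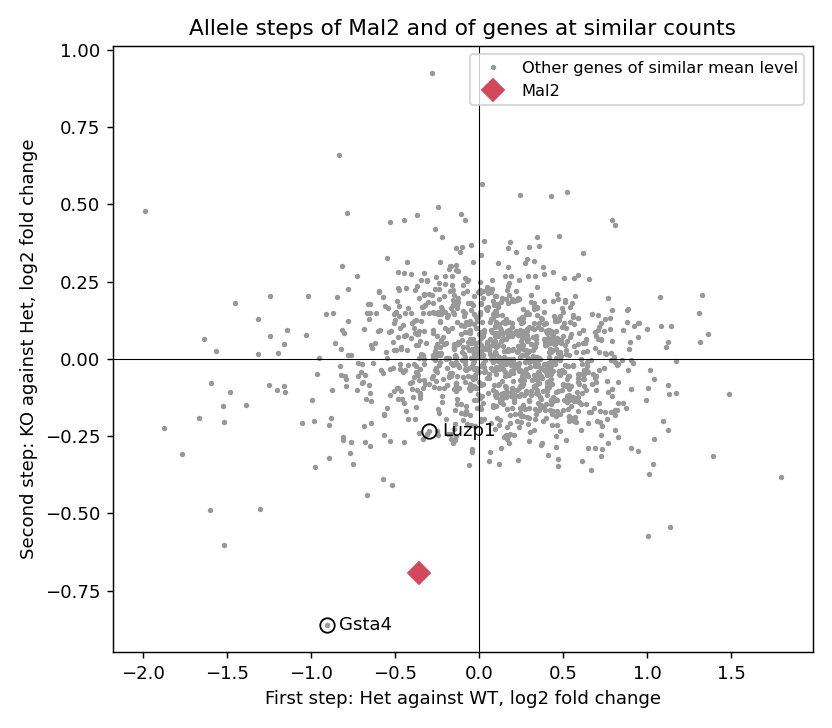
First step (Het against WT, horizontal) against second step (KO against Het, vertical), both as log2 fold changes, for Mal2 (diamond) and 1277 other genes of similar mean level (dots); the 2 axes share the Het libraries. Mal2 (-0.36, -0.69) lies inside the horizontal spread and near the lower end of the vertical one, where Gsta4 is the only gene further down.

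No gene passed an adjusted p of 0.05 in edgeR in any of the 3 comparisons (0 of 13688, or 0%), and at an unadjusted p under 0.05 there were 0.752% of genes in KO against Het, 19.8% when Het was compared with WT and 23.5% when KO was. DESeq2 placed 0%, 2.38% and 7.68% of the genes it adjusted past 0.05, in the same order. Split by direction, the unadjusted shares were 13.9% lower and 9.6% higher for KO against WT, 11.6% and 8.26% for Het against WT, and 0.351% and 0.402% for KO against Het; in DESeq2 they were 5.44% and 2.24%, then 1.38% and 1%, then 0%. The other genes are read against these shares. Of the 19 family members beside Mal2 in the table, all with the MARVEL domain or closely related to such proteins, 16 passed the filter on low counts. Cmtm2a had 0 counts, and Cmtm2b and Cmtm5 had at most 4 in a library. In KO against WT, 9 of the 16 were lower and 7 higher, with a median log2 fold change of -0.24 (-0.12 without WT-1860) beside 0.03 over all tested genes. In edgeR 0 passed (smallest adjusted p = 0.116), 6 were lower and 1 higher at an unadjusted p under 0.05, and DESeq2 placed 3 past its threshold, all lower. In KO against Het, 11 of 16 were lower, the median was -0.08, and 0 reached an unadjusted p under 0.05 in edgeR or passed in DESeq2.

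The nearest relatives of Mal2 are Mal, Mall and Pllp. Mal, which sorts proteins to the apical membrane in kidney and thyroid epithelia and is a myelin protein, was at 14.0, 13.6 and 8.82 CPM in the 3 WT libraries, in the order WT-2404, WT-1860 and WT-2067. It was at 2.19, 7.08 and 11.3 CPM in Het-2066, Het-1770 and Het-2042, and at 6.98, 0.395, 6.04 and 1.11 CPM in KO-2079, KO-2070, KO-2124 and KO-2126. The KO libraries lay below the WT libraries, with a log2 fold change of -1.65 (SE 0.70), and the Het libraries overlapped both. Its spread was far wider than that of Mal2, down to 3 counts in KO-2070. Mall, a MAL-like membrane protein, was at 3.86 to 10.4 CPM in WT, 3.33 to 3.82 CPM in Het and 1.62 to 4.47 CPM in KO libraries. Its log2 fold change was -1.32 (SE 0.37) from WT to KO, and KO and Het overlapped. Pllp, or plasmolipin, was at 6.19 to 11.4 CPM in WT, 4.21 to 10.1 CPM in Het and 4.21 to 8.79 CPM in KO libraries, with all groups overlapping. None of the 3 had KO libraries wholly below Het libraries, as Mal2 had, beside 1.16% of all tested genes. Whether their steps differ from those of Mal2 was not tested.

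Of the more distant members, Plp2, an endoplasmic reticulum membrane protein, was at 12.4 to 19.3 CPM in WT, 9.03 to 12.3 CPM in Het and 7.70 to 10.4 CPM in KO libraries. Its log2 fold change in KO against WT was -0.82 (SE 0.20), with WT above both other groups. Myadm, a myeloid-associated membrane protein, was at -0.81 (SE 0.23), Cmtm3 at -1.02 (SE 0.39) and Cmtm6, which stabilises PD-L1 at the cell surface, at -0.55 (SE 0.21). Without WT-2404, Cmtm3 was at -0.51 and Cmtm6 at -0.31. DESeq2 placed Mall, Plp2 and Myadm past its threshold. Myadm and Cmtm3 had KO levels above Het in the fit, so that their difference lay in the step from WT. The tight junction members Marveld2, Marveld3 and Ocln overlapped between all groups, at 5.79 to 7.73, 4.24 to 10.2 and 9.73 to 17.5 CPM over the 10 libraries. Cmtm4 was at 26.9 to 54.8 CPM in WT and 42.7 to 65.4 CPM in KO libraries (log2 fold change 0.44, SE 0.25), and its fold change ran from 0.22 (without WT-2404) to 0.78 (without WT-2067). Myadml2 was the 1 member with KO (1.90 ± 0.505 CPM, SD, n = 4) wholly above WT libraries (0.695 ± 0.447 CPM, SD, n = 3). It had 19 to 32 counts in the former and 13 to 18 in the latter. Over all tested genes, 6.74% had KO libraries wholly above WT.

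Per kilobase of annotated exon, Mal2 was the third of the MAL-type genes compared in WT libraries, at 8.63 CPM per kb. Plp2 was at 11.4 and Myadm at 10.9 CPM per kb, with ranges over the WT libraries that overlapped that of Mal2 (7.31 to 10.4 CPM per kb). Cmtm6 (8.08) and Cmtm3 (5.82 CPM per kb) followed, also overlapping. Mal (4.37), Pllp (4.01) and Mall (3.57 CPM per kb) came below the WT range of Mal2. In KO libraries Mal2 was at 4.14 CPM per kb, below Cmtm6 (5.54), Myadm (6.26), Plp2 (6.48) and Cmtm4 (6.85). Its KO range of 3.35 to 5.01 CPM per kb lay below those of Myadm, Plp2 and Cmtm4 and overlapped those of Cmtm6 and Marveld1 (3.47 to 4.93 CPM per kb, with a mean just above that of Mal2). Isoform use in this tissue was not measured, so the exonic lengths are those of the annotation.

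**Figure D3:**
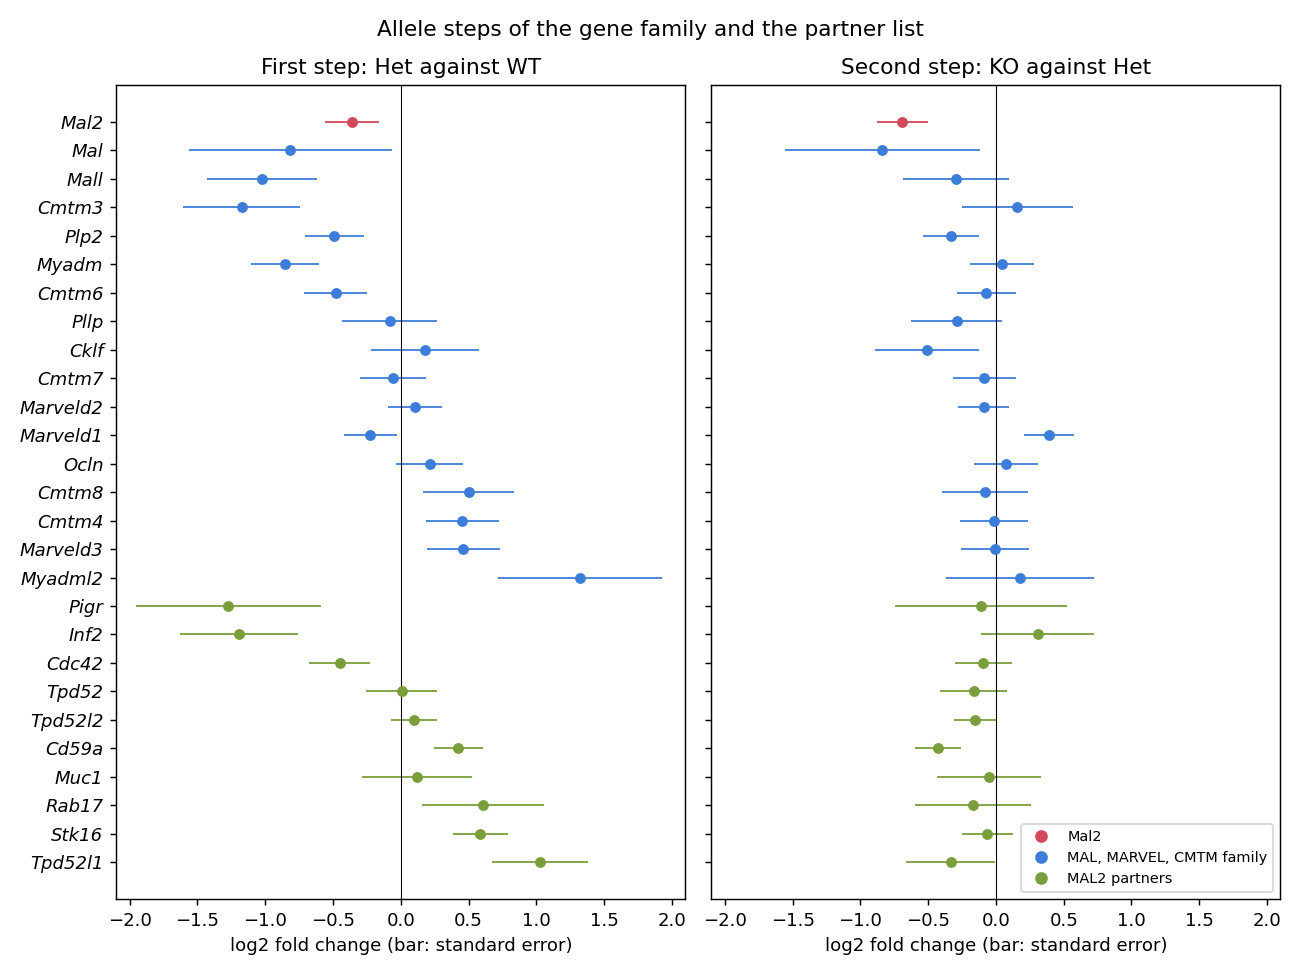
Log2 fold changes with standard errors (bars) of Mal2, 16 family members and 10 partners of MAL2 for the first step (left) and the second step (right). Mal2 is at -0.36 and -0.69; Mal has the only lower second step, -0.84, with a standard error of 0.72.

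Genes whose products bind MAL2 or act with it were fixed as a list of 10, and all were tested. In KO against WT, 4 were higher and 6 lower, the median was -0.03, and in edgeR 0 passed (smallest adjusted p = 0.140), while 1 higher and 2 lower reached an unadjusted p under 0.05. In KO against Het 9 of 10 were lower, with a median of -0.13, 0 passing and 1 at an unadjusted p under 0.05. DESeq2 placed 1 gene past its threshold in KO against WT and 0 in the other comparisons. The direct partner Tpd52, abundant in secretory epithelia, was at 46.7 to 56.2 CPM in WT, 47.1 to 55.7 CPM in Het and 28.9 to 61.1 CPM in KO libraries. Its log2 fold change in KO against WT was -0.15 (SE 0.25), or -0.30 without KO-2070 and -0.0003 without KO-2124, and all groups overlapped. Tpd52l2 was at 17.3 to 22.8 CPM over all 10 libraries. Tpd52l1 was at 2.54, 3.50 and 7.66 CPM in WT-2404, WT-1860 and WT-2067 and at 8.51 to 9.94 CPM in Het libraries, all above WT. Its log2 fold change in Het against WT was 1.03 (SE 0.35), or 0.72 without WT-2404 and 1.62 without WT-2067. Its KO libraries, at 5.35 to 8.43 CPM, lay wholly below the Het libraries, as in 1.16% of all tested genes. Tpd52l1 was the 1 gene of this list that shared that feature with Mal2, but with WT low.

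Of the effectors, Cdc42 was at 84.8 to 130 CPM in WT, 69.0 to 81.2 CPM in Het and 64.9 to 75.3 CPM in KO libraries. WT lay above both other groups, with a KO against WT log2 fold change of -0.54 (SE 0.21), or -0.34 without WT-2404, and Cdc42 was the gene that DESeq2 placed past its threshold. Inf2 was at -0.88 (SE 0.40) in KO against WT, and its KO libraries (2.42 to 10.6 CPM) spanned the Het range (3.91 to 5.95 CPM). Stk16, a lipid-anchored kinase of the Golgi, was at 12.4 to 18.0 CPM in WT and 19.4 to 24.1 CPM in KO libraries, the reverse direction to Mal2, at 0.52 (SE 0.19). Among cargoes of transcytosis, Pigr, the receptor that carries immunoglobulin A across epithelia, was at 29.9 to 68.2 CPM in WT, 12.4 to 36.6 CPM in Het and 4.75 to 37.0 CPM in KO libraries, at -1.38 (SE 0.62) in KO against WT. The apical mucin Muc1 was at 84.7 to 244 CPM over the 10 libraries, with no separation of groups. Cd59a, a lipid-anchored complement inhibitor, was at 13.9 to 17.2 CPM in Het and 10.4 to 14.1 CPM in KO libraries, a second step of -0.43 (SE 0.17), the 1 member with an unadjusted p under 0.05 there (edgeR adjusted p = 1.0).

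The wider machinery of apical transport (27 of 28 listed genes tested) had a median of -0.19 in KO against WT (-0.08 without WT-2404), with 20 lower and 7 higher. In edgeR 0 passed (smallest adjusted p = 0.116), 6 lower and 1 higher had an unadjusted p under 0.05, and DESeq2 placed 2 past its threshold, both lower. Anxa2, a membrane-binding annexin, had the largest of these differences among the genes named by rule, from 84.2 to 227 CPM in WT to 71.9 CPM at most in KO libraries (log2 fold change -1.82, SE 0.44). Vamp8, the vesicle SNARE of zymogen granules, was at 35.0 to 47.8 CPM in WT and 39.4 to 70.1 CPM in KO libraries (0.35, SE 0.22, or 0.19 without KO-2070). The 17 polarity and tight junction genes had a median of 0.08 (-0.05 without WT-1860), with 10 higher and 7 lower, 0 passing in edgeR, 3 in each direction at an unadjusted p under 0.05, and 1 in each direction in DESeq2. Ezr, the apical membrane linker ezrin, was at -0.83 (SE 0.23) and Prkcz, an atypical protein kinase C, at 0.78 (SE 0.23). In KO against Het these 2 lists had medians of -0.09 and 0.01 and DESeq2 placed 0 of their genes past its threshold.

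Markers of the cells that could carry Mal2 were read in the same comparisons. Among 16 general epithelial genes, 9 were lower and 7 higher in KO against WT (median -0.39, or -0.24 without KO-2124), with 0 passing in edgeR, 6 lower and 1 higher at an unadjusted p under 0.05, and 3 lower in DESeq2. Krt8, a keratin of simple epithelia, was at 151 to 204 CPM in WT and 76.0 to 130 CPM in KO libraries (log2 fold change -0.92, SE 0.27), and Cldn4, a tight junction claudin, was at -1.94 (SE 0.48). Spint2, a protease inhibitor with the highest mean of the list, was at 98.5 to 163 CPM in WT and 109 to 187 CPM in KO libraries. Of 8 duct markers, 7 were lower and 1 higher, with a median of -1.24, and 0 passed in edgeR. At an unadjusted p under 0.05 in edgeR 5 were lower, and 4 were lower in DESeq2. KO lay wholly below WT in 5 of the 8, beside 9.17% of all tested genes. The summed level of the 8 markers was 503 to 1073 CPM in WT, 243 to 388 CPM in Het and 165 to 424 CPM in KO libraries. None of the 8 was without counts in any library. Krt7 was at -1.97 (SE 0.46), Krt19 at -1.62 (SE 0.45) and the duct transcription factor Sox9 at -0.93 (SE 0.22).

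In KO against Het the duct markers had a median of -0.04, with 5 lower and 3 higher, and the epithelial markers one of -0.11, with 14 lower and 2 higher. DESeq2 and edgeR passed 0 of either list, and 0 reached an unadjusted p under 0.05. The summed duct level was 424, 166, 308 and 165 CPM in KO-2079, KO-2070, KO-2124 and KO-2126, so that 1 KO library was above the Het range, 1 within it and 2 below it. In Mal2 all 4 were below the Het range. With the mean duct level as a covariate, a choice made after seeing the data, the Mal2 first step was -0.22 (SE 0.27), the second -0.66 (SE 0.19) and KO against WT -0.88 (SE 0.29). In the same fit Mal was at 0.51 (SE 0.55), Inf2 at 0.30 (SE 0.43), Cmtm3 at 0.34 (SE 0.41) and Pigr at 0.68 (SE 0.37) in KO against WT. Without the covariate all 4 were below 0, while Cmtm4 and Vamp8 went from above 0 to below with it. The summed duct level was at least 503 CPM in WT and at most 424 CPM in the other libraries. Duct level and the difference of WT from the other groups therefore cannot be told apart in this fit. Between Het and KO libraries the summed duct levels overlapped. The part of duct content was not tested in either step. With the epithelial mean as the covariate, the log2 fold change of Mal2 Het against WT was -0.29 (SE 0.22) and that of Mal2 KO against Het was -0.62 (SE 0.21).

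Markers of other cells were also compared between KO and WT, and edgeR passed 0 genes of any of these lists. All 8 macrophage and neutrophil markers were lower (8 at an unadjusted p under 0.05, 5 in DESeq2), with a median of -1.78 that was -0.70 without WT-2404. Their summed level was 317 to 1312 CPM in WT, 179 to 250 CPM in Het and 94.2 to 363 CPM in KO libraries. Fibroblast markers had a median of -1.70 with 6 of 7 lower (4 by each of the same criteria), and summed levels of 1220 to 4324 CPM in WT, 494 to 954 CPM in Het and 437 to 1097 CPM in KO libraries. Lymphoid markers were lower in 8 of 8 (3 at an unadjusted p under 0.05, 0 in DESeq2), with a median of -1.32 that ran from -2.33 (without KO-2124) to -0.87 (without WT-1860). Enzyme genes were higher in 31 of 31 (2 at an unadjusted p under 0.05, 1 in DESeq2), with a median of 1.16 that ran from 0.62 (without WT-2404) to 2.07 (without WT-2067). Of the acinar transcription factors 6 of 6 were higher (0 by either criterion), with a median of 0.63, or 0.33 without WT-2404 and 1.12 without WT-2067. Islet markers had a median of 0.79 (0 by either criterion), or 0.29 without WT-2404 and 1.50 without WT-1860. Endothelial markers had a median of 0.30, or 0.14 without KO-2070 and 0.53 without WT-1860, and adipocyte markers one of 0.60, or 0.14 without WT-1860 and 1.39 without WT-2067. Each of these 2 lists held 1 gene, higher, at an unadjusted p under 0.05 and 0 in DESeq2. Of the lists in this paragraph, only the enzyme level was used as a covariate. The part of these cells in the Mal2 difference between KO and WT was not tested.

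The genes most like Mal2 were found by the root-mean-square difference of log2 CPM over the 10 libraries, each gene centred on its own mean. The median difference between Mal2 and any tested gene was 0.65, and the closest gene, Mlph, was at 0.17. Mlph encodes melanophilin, which links RAB27A vesicles to myosin Va. It was at 15.7 to 20.5 CPM in WT, 11.2 to 14.5 CPM in Het and 5.79 to 10.6 CPM in KO libraries, 3 separate ranges, with steps of -0.47 (SE 0.22) and -0.56 (SE 0.21). The next were Zbtb12 (0.19), a zinc finger protein, Rps6ka4 (0.22), a kinase downstream of MAP kinases, and Dsc2 (0.23), a desmosomal cadherin. Macc1 and Appbp2 (both 0.25), the sterol synthesis enzyme Msmo1 (0.26) and the glutathione synthetase Gss (0.26) were also among the closest 10, of which 8 are named here. KO libraries lay wholly below WT libraries in these 8, and in Mlph and Zbtb12 also wholly below Het libraries. Since likeness to a gene with this order selects genes with this order, these values describe the profiles and carry no test. With Pearson correlation as the measure, 4 of the 10 were kept, and leaving out 1 library kept 4 to 9.

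**Figure D4:**
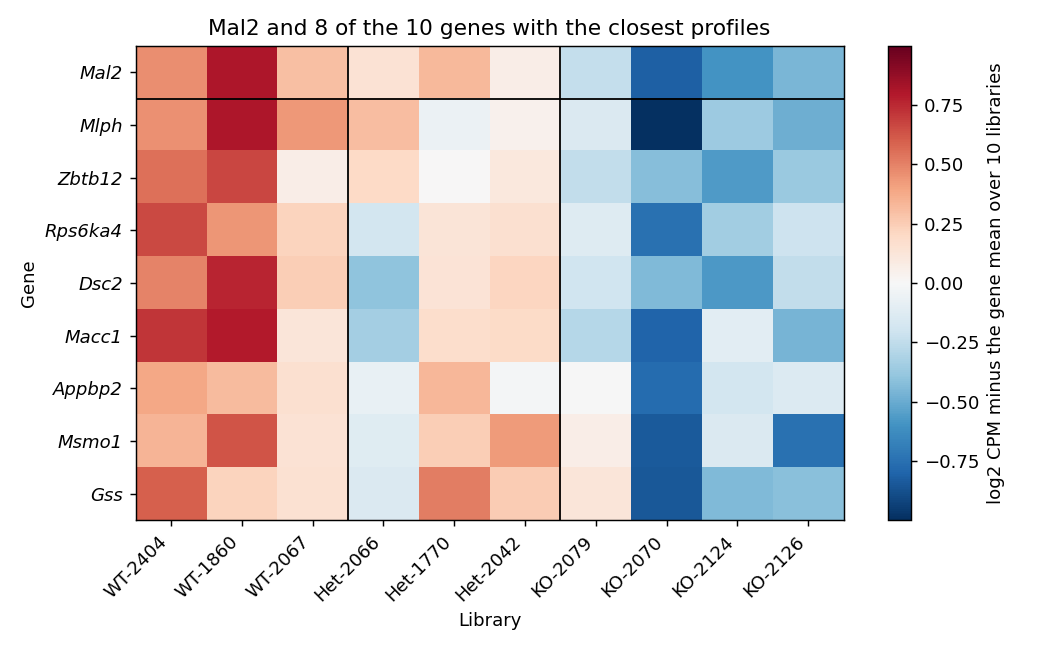
Log2 CPM minus the gene's mean over the 10 libraries (colour) for Mal2 and 8 of the 10 genes with the smallest root-mean-square difference from it, from Mlph (0.17) to Gss (0.26). WT-1860 is the highest library and KO-2070 the lowest for Mal2, at 30.7 and 9.88 CPM.

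The genes beside Mal2 on chromosome 15 were read from the RefSeq gene table (GRCm38.p6). Of 10 neighbours in the count table, 5 on each side, 5 passed the filter on low counts. Colec10, the nearest on 1 side, had 3 counts in all. The nearest on the other side, Nov (Ccn3), a matricellular protein, was at 4.78 to 14.6 CPM in WT, 3.51 to 7.45 CPM in Het and 4.93 to 7.42 CPM in KO libraries. Ext1, a heparan sulphate polymerase, was at -0.80 (SE 0.23) in KO against WT (-0.50 without WT-2404), Tnfrsf11b, or osteoprotegerin, at -1.66 (SE 0.56) and Taf2, a subunit of TFIID, at -0.46 (SE 0.20). Tnfrsf11b had only 4 counts in each of KO-2070 and KO-2126. Enpp2, or autotaxin, was at 7.43 to 8.51 CPM in WT, 10.9 to 13.6 CPM in Het and 12.0 to 19.4 CPM in KO libraries (0.89, SE 0.20), opposite in direction to Mal2. DESeq2 placed Ext1 and Enpp2 past its threshold. In KO against Het 0 of the 5 had separate ranges, beside 2.46% of all tested genes.

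Across the processing choices tried, the second step of Mal2 ran from -0.80 (without KO-2079) to -0.51 (library size alone), and the first from -1.74 (library size alone) to -0.21 (without WT-1860). The median of all tested genes in KO against WT was 0.03 in the fit reported and -1.17 by library size alone, where Mal2 KO against WT was -2.25.

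**Figure D5:**
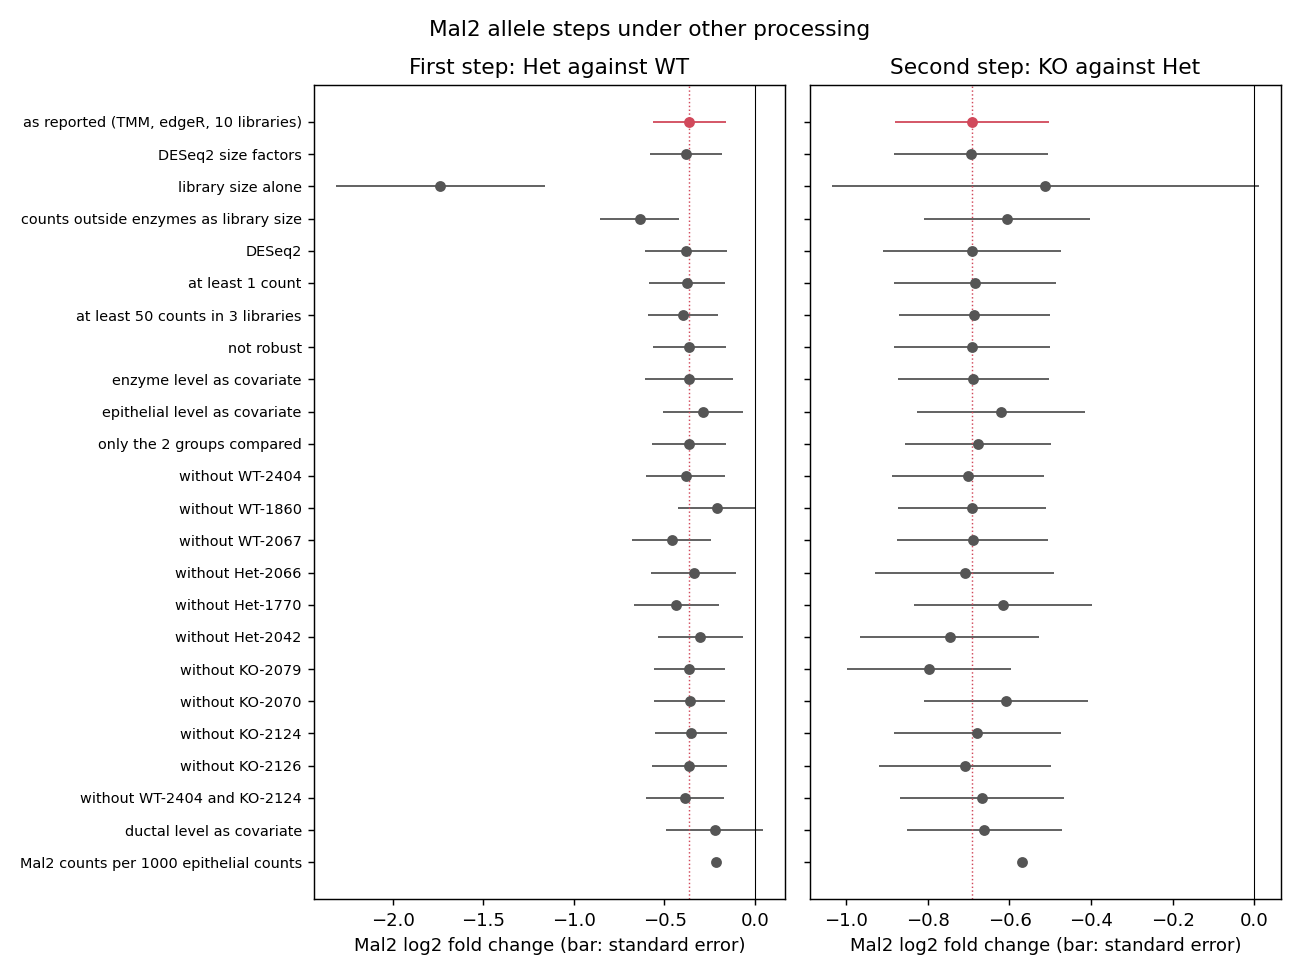
Mal2 log2 fold change for the first step (left) and the second step (right) under each processing choice, with standard errors as bars where available. The dotted line marks the value reported, -0.36 and -0.69. All values are below 0; the first step reaches -1.74 by library size alone and the second stays between -0.80 and -0.51.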

How the data were processed

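Per the labels' protocols, tissue was frozen and pulverised before column extraction of RNA; a stranded mRNA library kit is named for every library but WT-2404, whose label names none. The submitters' processing notes list mm10, DRAGEN, STAR and Cufflinks; their roles are not given in the sources used here. The authors deposited raw counts per gene symbol, and the 10 columns were matched to the samples by genotype and mouse number. A further allele that all groups share and the results of some genes are not reported here, and 1 WT mouse that a label counts was not analysed here. The 2 rows naming no gene stayed out of library sizes; reads outside genes were 2.59% to 8.71% of each library and ambiguous reads 0.101% to 0.584%. Of 24421 genes, 13688 passed filterByExpr (minimum count 10). edgeR 4.0.16 (TMM, robust quasi-likelihood fit, two-sided, all 10 libraries, no covariate) gave log2 fold changes and Benjamini-Hochberg adjusted p-values over all genes, and DESeq2 1.42.0 was an alternative; both ran in R 4.3.3, and the edgeR code was checked on simulated counts. Log2 CPM used a prior count of 2. Libraries of a group differed by more than sampling noise (chi-square per degree of freedom 26.5 to 988). Mal2 and the lists were chosen with earlier results of these data known. Genes named were Mal2, Insr, Igf1r, the family and partner lists, the 2 genes with the smallest p and the 2 with the highest mean of each other list, the 10 closest profiles, similar-level genes with steps as low as Mal2 or separate descending ranges (Luzp1 was added after its values were seen), and the 5 neighbours on each side.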

Additional observations from a re-analysis of the deposited data

Results flagged for a closer look

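Of 44 measures per library (Mal2 on 4 scales, the summed level of each list, and each tested family member and partner), 1 set a KO library apart by Dixon's criterion; about 2.2 would be flagged by chance. The summed level of the apical transport list was 520 CPM in KO-2079 and 466 to 472 CPM in the other 3 KO libraries, a gap of 0.898 of the group's range. The same library had the highest Mal2 level of the KO group on the TMM scale, 14.8 CPM, which was not itself apart. Groups of 3 libraries were not examined.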

How the results depend on the processing

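No paired analysis was run, because each library came from a different mouse and the labels give no litter or other pairing between groups. By library size alone, Mal2 Het against WT was -1.74, Mal2 KO against WT was -2.25, and the slope was -1.10 per allele, and the second step minus the first turned to 1.23; with enzyme counts left out of the library size the first step was -0.64 and that difference 0.031. Per 1000 epithelial counts, KO against WT was -0.79. The cause of each shift was not tested. The share of similar genes with a first step as low as Mal2 was 5.72% with the enzyme covariate, 20.0% with the epithelial covariate, 22.5% with similar WT means and 7.68% without WT-2404 and KO-2124 (chosen after seeing the data). Leaving out 1 library gave first steps from -0.46 to -0.21, second steps from -0.80 to -0.61, KO against WT from -1.16 to -0.90, slopes from -0.59 to -0.48, step differences from -0.48 to -0.18, first-step shares from 8.24% to 23.6% and second-step shares from 0% to 0.404%.

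The genes called KO against WT were 2835 by library size alone and 1009 in DESeq2, and from 0 to 1933 with 1 library left out (1933 without WT-2067). The genes called Het against WT were 3125 and 326, and from 0 to 1158 (without WT-2067). KO against Het gave 0 throughout. The 13 genes with separate descending ranges became 2 by library size, 6 with enzymes left out, 7 with at least 50 counts in 3 libraries and 64 without WT-2404 and KO-2124, and from 13 to 74 (without Het-2066) with 1 library left out. By library size alone Cmtm4 (-0.60), Stk16 (-0.59), Vamp8 (-0.83), Prkcz (-0.25) and Enpp2 (-0.21) turned below 0, all above the shift of -1.17. With the duct covariate, chosen after seeing the data, Mal (0.51), Cmtm3 (0.34), Inf2 (0.30), Pigr (0.68) and Tnfrsf11b (0.23) turned above 0, and Cmtm4 (-0.22) and Vamp8 (-0.17) below.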
